A study of Homo sapiens with 10 samples.

Results

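A genome-wide CRISPR knockout library was read out in 22Rv1, a line established from a human prostate carcinoma, and at T6 and T12 10 of its sgRNAs were scarce in the NMYC-overexpressing derivative and not in parental cells. They were chosen from the 55849 listed sgRNAs on CPM, the counts per 1000000 counts of a library. Each had at least 5 CPM in all 4 parental libraries of T6 and T12 and below 2 CPM in all 4 NMYC libraries of T6 and T12, and T0 was not used. The 10 sgRNAs target HES1, NOS3, DUSP11, ACADS, SMPDL3B, ALPPL2, TNS1, PCDHB14, C12orf40 and TSGA10IP. These values chose them, so the arm difference at T6 and T12 is given below as a description and was not tested.

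Parental 22Rv1 cells and cells overexpressing NMYC, the protein of MYCN, had each been infected with the lentiviral library at a multiplicity of 0.3 and selected with puromycin. Each arm is represented by a single T0 library and by 2 libraries each at T6 and T12, from duplicate cultures plated after selection and passaged every 72 hours for 12 generations. The sources used here do not say how NMYC was introduced or whether the derivative is a clone. The stated aim of the series is to find genes whose loss harms cells only when MYCN is overexpressed.

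In such a screen each cell carries an sgRNA that directs Cas9 to cut a single gene, and the sgRNA is also the tag by which the cell's descendants are counted. An sgRNA becomes scarce when its knockout slows growth. It also becomes scarce when few cells carrying it were infected or carried through a passage, which is why libraries target each gene with several sgRNAs. A gene effect is read from sgRNAs of the same gene that move together, and non-targeting sgRNAs give the level of movement without a target. NMYC is a transcription factor of the MYC family, and its overexpression is known in neuroendocrine prostate cancer, where luminal identity gives way to neural gene expression.

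Library totals ran from 8783512 to 18398571 counts, so the 2 CPM limit stood for between 19.1 and 32.6 counts in the later NMYC libraries. The 5 CPM limit stood for between 43.9 and 84.6 counts in the later parental ones. A count of 0 allows up to 3 counts, which is 0.184 to 0.315 CPM in the later NMYC libraries. The amplicons carried no molecular identifiers, so reads can repeat a molecule and these limits cover counting error only. Between 13.9% and 37.5% of all sgRNAs were below 2 CPM in any 1 of the 8 later libraries.

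The set was small against its parts. Of all sgRNAs, 14317 (25.6%) had at least 5 CPM in all 4 later parental libraries and 2984 (5.34%) were below 2 CPM in all 4 later NMYC libraries. The 10 sgRNAs that met both conditions were 0.0179% of the table, 0.0698% of the plentiful parental ones and 0.335% of the scarce NMYC ones. Of the 2984 sgRNAs scarce in later NMYC libraries, 1184 (39.7%) were below 2 CPM in all 4 later parental libraries too. The same rule with the arms exchanged gave 35 sgRNAs, 0.0627% of the table, and this difference in number was not tested. The exchanged rule started from more plentiful sgRNAs, 17898 at 5 CPM or more in all later NMYC libraries. The 35 were 0.196% of those and 1.11% of the 3157 below 2 CPM in all later parental libraries. Both shares were also above those of the 10. The 10 sgRNAs and the 35 shared 0 genes, and in neither set did a gene appear more than once. In sets this small shared or repeated genes would be rare, so these counts say little about the genes.

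Many sgRNAs missed the set in a single library only. As many as 190 sgRNAs met 7 of the 8 conditions, of which 50 failed only in NMYC T6 replicate 1 and 37 only in parental T12 replicate 2. Without parental T6 replicate 1 or 2 the rule gave 19 or 36 sgRNAs, and without parental T12 replicate 1 or 2 it gave 38 or 47. Without NMYC T6 replicate 1 or 2 it gave 60 or 36, and without NMYC T12 replicate 1 or 2 it gave 18 or 16. Each omission removes a condition, so the set could only grow, and the original 10 stayed in it throughout.

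The sgRNAs nearest the limits show how narrow the choice was. Just inside the parental limit were those against TSGA10IP, TNS1 and PCDHB14, with lowest parental values of 5.73, 5.81 and 5.97 CPM. Just outside it were sgRNAs against KDELR2, SMG1 and OTOP1, at 4.80, 4.43 and 4.17 CPM. Just inside the NMYC limit were PCDHB14, C12orf40 and HES1, with highest NMYC values of 1.82, 1.27 and 1.20 CPM. Just outside it were sgRNAs against ZDHHC17 at 2.21 CPM, a non-targeting control at 2.27 CPM and OPLAH at 2.45 CPM. The non-targeting control, NonTargetingControlGuideForHuman_0318, has no target in the genome by design, and its lowest later parental value was 14.6 CPM.

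HES1 is the only one of the 10 genes on a list of neural and neuroendocrine lineage factors. Its protein is a basic helix-loop-helix repressor, a main effector of Notch signalling that holds down proneural genes. In parental cells its sgRNA HGLibB_21148 had 7.34 CPM at T0, 7.98 and 6.26 at T6, then 10.8 and 20.7 at T12. In NMYC cells it had 4.98 CPM at T0, 1.20 and 0.524 at T6, then 0.227 and 0 at T12. It was thus present at T0 in both arms. In the NMYC arm each later library was lower than T0, which the rule fixes at this T0 level.

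The other HES1 sgRNAs did not show this pattern. HGLibB_21149 had 5.74 and 2.96 CPM at parental T12 and 9.32 and 4.72 at NMYC T12, a log2 difference NMYC minus parental of 0.56 (SE 2.15, edgeR adjusted p = 0.956). HGLibB_21150 had 7.86 and 92.1 CPM at parental T12 and 28.0 and 59.1 at NMYC T12, a log2 difference of -0.17 (SE 1.20, edgeR adjusted p = 0.978). At both sgRNAs the T12 values of the arms overlapped. At T6 their log2 differences were -0.59 and 0.92, with SEs of 2.15 and 1.21 and adjusted p-values of 1.0.

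The neural and neuroendocrine list as a whole held 129 sgRNAs against 44 genes, of which 117 were tested with the HES1 member set aside. At T12, 0 were lower and 0 higher in NMYC cells by edgeR, and without adjustment 7 lay lower and 9 higher at 0.05, where over all sgRNAs 5.74% and 5.22% did. Their median log2 difference was 0.04, beside -0.07 over all 53040 sgRNAs tested. At T6 again 0 were lower and 0 higher, with 3 and 3 unadjusted (2.52% and 0.899% of all), and the median was -0.15 beside -0.04 over all.

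NOS3 encodes endothelial nitric oxide synthase, which makes the signalling gas nitric oxide. Its sgRNA HGLibB_32288 had the highest lowest parental value of the set, with 19.0 and 20.04 CPM at T6 and 102 and 19.0 at T12. At parental T0, however, it had 4 counts, or 0.217 CPM. Its NMYC values were 10.4 CPM at T0, 1.07 and 0.839 at T6, then 0.758 and 0 at T12. The T0 order of the arms was therefore the reverse of the later order.

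The other NOS3 sgRNAs lay on the opposite side, with higher values in NMYC cells that did not pass the edgeR test. HGLibB_32287 had 0.363 and 0.768 CPM at parental T12 and 10.7 and 39.5 at NMYC T12, a log2 difference of 5.52 (SE 2.58, edgeR adjusted p = 0.41, from 0.00983 by DESeq2 to 0.713 over the alternatives). HGLibB_32289 had 2.90 and 7.74 CPM at parental T12 and 11.2 and 46.6 at NMYC T12, a log2 difference of 2.52 (SE 1.90, edgeR adjusted p = 0.643). All 4 later NMYC values of HGLibB_32289 exceeded all 4 later parental ones, which was so for 2.54% of the sgRNAs tested. At T6 the log2 differences were 1.22 for HGLibB_32287 and 2.90 for HGLibB_32289 (edgeR adjusted p = 1.0 for each), and without NMYC T6 replicate 2 the former was -1.03.

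DUSP11 encodes an RNA phosphatase that trims the triphosphate end of RNA polymerase III transcripts. Its sgRNA HGLibB_14112 had the highest NMYC T0 level of the set. Parental libraries gave 9.62 CPM at T0, 7.13 and 10.2 at T6, then 66.6 and 16.5 at T12. NMYC libraries gave 11.4 CPM (176 counts) at T0, then 0.401 and 0.105 at T6 and 0 and 0.123 at T12. The T0 values of the arms were thus close. Every later NMYC value was below every later parental one, which the rule fixes for each of the set. HGLibB_14110, another sgRNA against DUSP11, was plentiful throughout, with 29.4 and 14.9 CPM at parental T12 and 80.6 and 63.8 at NMYC T12. HGLibB_14111 varied within each group, with 0 and 14.2 CPM at parental T12 and 21.9 and 0.184 at NMYC T12. At T6 HGLibB_14110 had 43.0 and 95.1 CPM in parental and 57.4 and 12.2 in NMYC libraries. The T6 log2 differences were -1.50 for HGLibB_14110 (SE 1.22) and 3.74 for HGLibB_14111 (SE 2.44), and neither passed the edgeR test.

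ACADS and SMPDL3B act in lipid metabolism. ACADS encodes the mitochondrial short-chain acyl-CoA dehydrogenase of fatty acid oxidation. Its sgRNA HGLibB_00371 had 11.0 CPM at parental T0, 8.83 and 7.86 at T6, then 49.0 and 39.6 at T12. The NMYC arm had 3.69 CPM at T0, 0.134 and 0 at T6, then 0 and 0.368 at T12. Each later NMYC library held 6 counts or fewer of it, from 57 at T0.

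The other ACADS sgRNAs were below the median sgRNA in the arm difference at both times, without passing the test. At T12 HGLibB_00372 was practically at that median, -0.081 beside -0.073 over all sgRNAs tested. HGLibB_00370 had 139 and 78.4 CPM at parental T12 and 22.5 and 57.8 at NMYC T12, a log2 difference of -1.40 (SE 1.22, edgeR adjusted p = 0.702). HGLibB_00372 had 17.5 and 4.67 CPM at parental T12 and 20.2 and 4.11 at NMYC T12, a log2 difference of -0.08 (SE 1.95, edgeR adjusted p = 0.995). At T6 the values were -1.39 and -1.22 (edgeR adjusted p = 1.0 for each). Neither sgRNA was scarce in the NMYC libraries of T12, where their lowest value was 4.11 CPM.

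SMPDL3B encodes a sphingomyelinase-like phosphodiesterase anchored on the cell surface. Its sgRNA HGLibB_45763 went from 4 counts (0.217 CPM) at parental T0 to 25.3 and 11.3 CPM at T6 and 41.9 and 40.2 at T12. The NMYC libraries gave 2.65 CPM at T0, 0.803 and 0.524 at T6, then 0.152 and 0 at T12. HGLibB_45762 had 22.4 and 1.83 CPM at parental T12 and 0 and 8.70 at NMYC T12, and HGLibB_45764 had 38.4 and 8.57 against 24.2 and 56.8. At both of these sgRNAs the T12 values of the arms overlapped.

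ALPPL2, named ALPG in RefSeq, encodes an alkaline phosphatase of the placental and germ cell type. It belongs to a family of near-identical copies, so the target of its sgRNAs is uncertain. HGLibB_01712 had 42.7 CPM at parental T0, 18.6 and 28.2 at T6, then 46.2 and 10.2 at T12. In the NMYC arm it had 5.31 CPM (82 counts) at T0 and then 2, 2, 0 and 0 counts in the T6 and T12 libraries. No other sgRNA of the set had a lower maximum over the later NMYC libraries than its 0.210 CPM. HGLibB_01713 was present in every library, with 10.7 and 19.2 CPM at parental T12 and 31.4 and 2.82 at NMYC T12. Its T6 values were 9.61 and 50.5 CPM in parental and 5.02 and 24.5 in NMYC libraries. That is a log2 difference of -1.65 (SE 1.56), with overlapping arms. HGLibB_01714 had 3.33 and 0 CPM at parental T6 against 31.0 and 10.4 at NMYC T6, the reverse of the order at HGLibB_01712, and 1.15 and 4.26 against 5.46 and 0.368 at T12. At T0, however, HGLibB_01714 had 34.5 CPM in parental cells and 1 count in NMYC cells.

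TNS1 and PCDHB14 encode proteins of cell adhesion. TNS1 is tensin 1, which links integrins to actin at focal adhesions. Its sgRNA HGLibB_50859 had 28.9 CPM at parental T0, 16.3 and 5.81 at T6, then 8.64 and 10.8 at T12, so it was the only one of the 10 whose parental T0 value lay above every later parental value. NMYC cells gave 5.69 CPM at T0, 0.268 and 0.105 at T6, then 0.303 and 0 at T12. HGLibB_50860 had 0.786 and 4.32 CPM at parental T12 and 13.9 and 7.41 at NMYC T12, a log2 difference of 1.95 (SE 1.42, edgeR adjusted p = 0.63), on the opposite side. HGLibB_50858 had 0 counts in all 4 later parental libraries and in both NMYC T12 libraries, with 3.01 and 14.8 CPM at NMYC T6. That is at least 31.0-fold higher at NMYC T6 than a limit of 3 counts in each parental T6 library (edgeR adjusted p = 1.0). From NMYC T6 replicate 1 alone the bound is 10.5-fold, and from replicate 2 alone 51.5-fold. These bounds cover counting error only. At T0 the order of the arms was the reverse, with 4.95 CPM (91 counts) in parental and 0.194 CPM (3 counts) in NMYC cells.

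PCDHB14 is a protocadherin of the clustered beta family, whose members are similar in sequence, so the target of its sgRNAs is also uncertain. HGLibB_35438 was scarce at T0 in both arms, with 0 counts at parental T0 and 4 counts (0.259 CPM) at NMYC T0. In parental cells it then had 5.97 and 10.7 CPM at T6 and 17.3 and 40.3 at T12, and in NMYC cells 1.47 and 0.105 at T6 and 1.82 and 0.245 at T12. HGLibB_35436 had 0.907 and 27.0 CPM at parental T12 and 9.48 and 5.33 at NMYC T12, with overlapping arms. Its log2 difference was -1.53 at T6 (SE 1.82) and -1.02 at T12 (SE 1.80), and neither passed the edgeR test. HGLibB_35437 was scarce nearly everywhere, with 7.29 CPM in parental T6 replicate 2, at most 0.532 CPM in any other library, and a mean count too low for the test.

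C12orf40 and TSGA10IP are genes of the germ line. C12orf40, named REDIC1 in RefSeq, encodes a protein of meiotic recombination, and TSGA10IP was named for its partner, a testis-specific protein. The C12orf40 sgRNA HGLibB_05234 had 22.1 CPM at parental T0, 26.7 and 8.42 at T6, then 30.5 and 7.33 at T12. In NMYC cells it had 1 count (0.0647 CPM) at T0, then 1.27 and 0.524 CPM at T6 and 0.758 and 0 at T12. It was already scarce in NMYC cells when culture began, and its T6 values lay above its T0 value.

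C12orf40 was the only gene besides ACADS whose other sgRNAs both lay below the median sgRNA at both times, for ACADS HGLibB_00372 only just at T12. HGLibB_05233 had 52.2 and 78.8 CPM at parental T6 and 24.1 and 37.9 at T12, against 3.08 and 22.5 at NMYC T6 and 16.2 and 0.858 at NMYC T12. Its log2 difference was -2.82 at T6 (SE 1.40, edgeR adjusted p = 1.0) and -2.12 at T12 (SE 1.36, edgeR adjusted p = 0.569). At T12 it was -5.01 without NMYC T12 replicate 1 and -1.23 without replicate 2, and at T6 it was -4.86 without NMYC T6 replicate 2 and -1.98 without parental T6 replicate 2. The later values of the arms did not overlap, which was so in this direction for 1.27% of the sgRNAs tested. The arms already differed in the same direction at T0, with 79.8 CPM in parental and 8.74 in NMYC cells. HGLibB_05235 had 16.3 and 8.69 CPM at parental T12 and 17.1 and 6.25 at NMYC T12, a log2 difference of -0.27 (SE 1.79, edgeR adjusted p = 0.975), and -1.13 at T6 (edgeR adjusted p = 1.0), with overlapping arms at T12.

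The TSGA10IP sgRNA HGLibB_51786 had 17 counts (0.924 CPM) at parental T0, 19.3 and 12.9 CPM at T6, then 48.5 and 5.73 at T12. Its NMYC values were 0 counts at T0, 0.803 CPM and 0 at T6, and 0 and 0.674 CPM at T12. It was scarce in every NMYC library, T0 included. HGLibB_51784 had 1.75 and 2.96 CPM at parental T12 and 0.152 and 26.8 at NMYC T12, and HGLibB_51785 had 9.13 and 19.7 against 66.9 and 5.21. At both, the NMYC replicates of T12 differed more than the means of the arms. At T6 HGLibB_51785 had 23.4 and 104 CPM in parental and 20.7 and 12.0 in NMYC libraries, which did not overlap. The T6 log2 differences were -2.57 for HGLibB_51785 (SE 1.42) and 0.19 for HGLibB_51784 (SE 2.25), and neither passed the edgeR test.

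The T0 libraries were not used in the choice and split the set. At NMYC T0, 4 of the 10 sgRNAs (DUSP11, NOS3, TNS1 and ALPPL2) had at least 5 CPM, 3 (HES1, ACADS and SMPDL3B) had 2 to under 5 CPM, and 3 (PCDHB14, C12orf40 and TSGA10IP) were below 2 CPM. The share below 2 CPM was 30.0% (95% exact Clopper-Pearson interval 6.67% to 65.2%, which treats the sgRNAs as independent draws). It was 26.7% over all sgRNAs, 75.5% over the 2984 scarce in all later NMYC libraries and 5.73% over the 14317 plentiful in all later parental ones. The median NMYC T0 level of the set was 4.34 CPM, against 7.31 over all sgRNAs and 17.1 over the plentiful parental ones. With 1 T0 library per arm these differences have no replicate check.

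At parental T0, 6 of the 10 had at least 5 CPM and the other 4 (NOS3, SMPDL3B, PCDHB14 and TSGA10IP) were below 2 CPM. Those 4, or 40.0%, compare with 38.9% of all sgRNAs and 15.4% of the plentiful parental ones. The rule puts their later parental values above T0. A parental T0 value below all later parental values was thus found in 40.0% of the set, beside 43.3% of the plentiful parental sgRNAs. Only DUSP11, TNS1 and ALPPL2 had at least 5 CPM in both T0 libraries, 30.0% of the set. That share was 35.2% over all sgRNAs, 64.6% over the plentiful parental ones and 3.05% over those scarce in all later NMYC libraries. For the sgRNAs that were at 2 CPM or more at NMYC T0, 7 in number, the T0 value lay above every later NMYC value, which the rule fixes.

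In the later libraries, whose values the rule used, the set was uneven between replicates. In parental cells the highest value lay in T12 replicate 1 for 7 of the 10, where the median was 44.0 CPM, against 17.8 in T12 replicate 2, 17.4 in T6 replicate 1 and 10.5 in T6 replicate 2. Over all sgRNAs the medians were 6.41, 6.74, 13.1 and 5.69 CPM in the same order. The set had to reach 5 CPM in each of these libraries, so higher medians follow from the rule. Medians by library for the plentiful parental sgRNAs are not given, so the peak in T12 replicate 1 cannot be called particular to the set. For 9 of the 10 the median of the 4 parental values was below 28.6 CPM, the median over the plentiful parental sgRNAs. SMPDL3B, at 32.8 CPM, was the exception. In NMYC cells 12 of the 40 later values were 0 counts, of which 10 were at T12 and 2 at T6. Over all sgRNAs, 8.93% and 6.85% were at 0 counts in NMYC T12 replicates 1 and 2, against 3.14% and 5.87% at T6. The rule holds the values of the set below 2 CPM, which by itself favours more zeros than over all sgRNAs.

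Across the 10 genes, each with 3 listed sgRNAs, the 20 that were not chosen gave a test that is independent of the choice. Of these, 19 passed the filter on low counts, and 18 had counts in at least 1 library of the T12 comparison. At T12, 0 of the 18 were lower and 0 higher in NMYC cells by edgeR, and at an unadjusted p under 0.05 there were 0 and 1. Over all 53040 sgRNAs 0.00189% were lower and 0% higher by that call, and 5.74% and 5.22% unadjusted. DESeq2 called 0 lower and 1 higher of the 18, the NOS3 sgRNA HGLibB_32287, where it called 4.3% and 4.08% of all, and unadjusted the counts were the same, beside 11.1% and 11% of all. The median log2 difference of the 18 was 0.15, beside -0.07 over all sgRNAs tested, and 8 of the 18 lay below that median.

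At T6, 0 of the 19 were lower and 0 higher by edgeR, as over all sgRNAs (0% and 0%). At an unadjusted p under 0.05, 1 was lower (C12orf40) and 1 higher (TNS1), beside 2.52% and 0.899% of all. DESeq2 called 0 and 0 of the 19, against 0.239% and 0.0924% of all, with 2 lower and 3 higher unadjusted (5.51% and 2.79% of all). The median log2 difference was -0.59, beside -0.04 over all, with 10 of 19 below the latter. Of the 20 sgRNAs 1 was below 2 CPM in all later NMYC libraries (5.00%, against 5.34% of all), the scarce PCDHB14 sgRNA. In this fit the common dispersion was 1.11 on 4 residual degrees of freedom, so large differences at single sgRNAs miss the threshold. Both cultures of an arm came from 1 infection, so the p-values measure only spread that arose after it.

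Among the controls, 0 of 989 non-targeting sgRNAs met the rule, which allows a share of up to 0.303%, above the 0.0179% of the table. Of 1080 sgRNAs against olfactory receptor genes, which are not expressed in most tissues, 0 met it (up to 0.278%). The mirrored rule also took 0 of each. Of the 1657 sgRNAs on 13 fixed gene lists, 1 met the rule, the HES1 sgRNA (0.06%, beside 0.0179% of the table). The mirrored rule was met by 2, beside 0.0627% of the table. Shares that rest on so few sgRNAs do not set the lists apart. The 12 lists with 0 covered mitosis, the proteasome, DNA replication, aminoacyl-tRNA synthetases, the spliceosome, RNA polymerase II, the cytosolic ribosome, Polycomb and DNA methylation, the MYC and MAX network, prostate luminal factors, growth-restraining genes, and candidate synthetic lethal partners of MYC or MYCN. With between 69 and 225 sgRNAs each, a count of 0 on these lists allows shares of 1.33% to 4.35%, so a share like that of the table was not detectable.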

How the data were processed

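Amplicons of the integrated sgRNA were sequenced in 10 libraries, 6 groups by arm and time. Values are whole-number read counts of each sgRNA, deposited without normalization. MAGeCK is named in the submitters' processing notes; its version, the trimming and the reference are not given in the sources. The labels give a library of 65000 sgRNAs. All columns were matched to samples by title, leaving 0 unmapped.

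Counts were scaled to the column total. Of the 55849 sgRNAs, 53040 with a mean count of at least 20 entered edgeR 4.0.16 under R 4.3.3 (quasi-likelihood, TMM, 1 mean per group, all libraries in 1 fit), adjusted by Benjamini-Hochberg at 0.05, with DESeq2 1.42.0 as an alternative. SEs were derived from the F statistic. The fit was also run on simulated counts with a dispersion shared by all sgRNAs and no infection step. That run does not vouch for its use on these libraries. The rule and lists were chosen with earlier results of these data known. Named by rule were members with the highest NMYC T0 values or the highest parental minimum, those on lists, those at the limits and genes with at least 2 other sgRNAs measured, all lower, met by ACADS and C12orf40 alone at T12. The other sgRNAs with an unadjusted p under 0.05 were named after their values were seen. Symbols of the 10 genes matched RefSeq, 8 directly and 2 as synonyms. Replicate numbers are not said to pair the arms.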

Additional observations from a re-analysis of the deposited data

How the results depend on the processing

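The size of the set depended on its limits. It was 6 with an NMYC limit of 1 CPM, 40 with 4 CPM, 3 with a parental limit of 10 CPM, 26 with 3 CPM, 878 from the T12 libraries alone and 277 from the T6 libraries alone. Sets that drop libraries have fewer conditions, so they could only grow and kept the original 10. Leaving out 1 library gave 16 to 60. With TMM sizes, median-of-ratios factors and non-targeting totals it was 15, 14 and 10, of which 9, 8 and 10 were among the original 10, and the mirrored set was 35, 34 and 34, a comparison chosen after seeing the data. The share below 2 CPM at NMYC T0 was 0% of 3 sgRNAs with the parental limit of 10 CPM, ran from 30.0% to 55.3% without 1 library, and lay inside its interval in the other alternatives. That interval is wide (6.67% to 65.2%) and all these sets share sgRNAs with the original 10, so this is a weak check.

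For the other sgRNAs of the genes, edgeR gave 0 calls at T12 and at T6 under every alternative run, with the replicate block (0 and 0) and without any 1 library (0 to 0), and DESeq2 gave 1 at T12, NOS3 HGLibB_32287 at 5.61. The block moved no call, and replicate differences of the arms correlated between -0.004 and 0.006. Summing T6 and T12 per culture gives a single value for both times, -0.0050 for HES1 HGLibB_21149 and -0.10 for HGLibB_21150. The first differs in sign from the main T12 value of its sgRNA, and the second from the main T6 value. This sum takes equal replicate numbers at T6 and T12 as the same culture, which the sources do not state.

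Leaving out 1 library turned the sign of several log2 differences. At T12 the ranges were -1.29 to 1.18 for ACADS HGLibB_00372, -0.85 to 0.27 for C12orf40 HGLibB_05235 and -1.12 to 2.48 for HES1 HGLibB_21150. At T6 they were -2.57 to 0.91 for ACADS HGLibB_00372, -1.82 to 0.36 for C12orf40 HGLibB_05235, -1.75 to 0.049 for HES1 HGLibB_21149, -1.03 to 2.17 for NOS3 HGLibB_32287 and -0.22 to 1.01 for TNS1 HGLibB_50860. Signs held at T12 for ACADS HGLibB_00370 (-2.57 to -0.76), NOS3 HGLibB_32287 (3.93 to 6.26) and HGLibB_32289 (0.78 to 3.38), and TNS1 HGLibB_50860 (1.19 to 3.61). The cause was not tested.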
